A study of Mus musculus with 2 samples.

Results

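Bidirectional promoter regions are stretches of open chromatin that lie between or beside the start sites of 2 protein-coding genes read in opposite directions, away from each other. They were taken from the series-level list of regions accessible in granulocyte monocyte progenitors (GMP). Rows that shared at least 1 bp were joined into a region, and each merged region took its summit, the point of strongest signal, from the row with the highest fold enrichment. A region was a member when its summit lay within 1000 bp of a transcription start site (TSS) of a gene on the minus strand and of one of another gene on the plus strand, with the minus-strand TSS on the left. By this rule 1273 of 75148 merged regions were members, and they served 1148 gene pairs made up of 2249 genes. The count used the start of every annotated transcript of a protein-coding gene. It was 1153 with protein-coding transcripts only and 799 with the 5′ end of each gene only, and all regions of both smaller sets were among the 1273. Taken row by row without merging, 2844 rows met the rule.

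The series held a single group. ATAC-seq, in which the transposase Tn5 cuts and tags DNA in open chromatin, was run on GMP of male C57BL/6J mice aged 5 to 6 weeks. These cells are the marrow progenitors of neutrophils and monocytes, and no treatment or allele is named in the labels. Both samples were biological replicates with an input of 50000 cells each and the same donor label, and the labels do not say in what way the cells were isolated. The deposited lists carried no read counts, so depth is unknown. Of 10 GMP markers, 10 had an open promoter (Mpo, Elane, Ctsg and Cebpa among them). Of 15 markers of other cell types, 7 did (Pax5, Ebf1, Gata1, Col1a1, Cdh5 and Pecam1 among them), and the T cell markers Cd3e, Cd8a, Bcl11b and Tcf7 and the B cell marker Cd79a were among those that did not. An open promoter is not a measure of transcription, and whether other cells were present was not tested.

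In a bidirectional promoter, a pair of core promoters sits back to back, and RNA polymerase is loaded on each and moves outwards. Many such pairs in mammals join housekeeping genes, whose products serve DNA repair, the mitochondrion or protein synthesis, and their shared DNA is usually rich in CpG dinucleotides and poor in TATA boxes. Regulators bound at such CpG-rich promoters include nuclear factor Y (NFY), the ETS family protein GABPA, the zinc finger proteins YY1, ZNF143 and ZBTB33 (Kaiso), and the KLF and SP factors.

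The DNA between the TSSs of a few pairs is shown first, because its short letter patterns recur in the results. Sequences are from the plus strand of mm10 (GRCm38), 5′ to 3′, and lie wholly outside annotated exons. The gene named first starts at the left end and runs leftwards, and the gene named second starts at the right end and runs rightwards. Capitals mark matches, on either strand, to one of the motifs searched. The first 3 are pairs of long standing in the study of shared promoters, and they show how differently such DNA is built. At chr7:28741821-28741991, between Mrps12, a protein of the mitochondrial ribosome, and Sars2, the mitochondrial seryl-tRNA synthetase, 4 NFY boxes (CCAAT, or ATTGG on the other strand) share 171 bases with a GGGCGGGAA that holds both the KLF/SP letters GGGCGGG and the E2F letters GGCGGGAA. At chr17:15499752-15499887, between the proteasome subunit gene Psmb1 and Tbp, which encodes the TATA-binding protein, there was 1 KLF/SP match. At chr11:101551956-101552148, between the homologous recombination gene Brca1 and the autophagy receptor gene Nbr1, there was 1 NFY box.
Mrps12/Sars2: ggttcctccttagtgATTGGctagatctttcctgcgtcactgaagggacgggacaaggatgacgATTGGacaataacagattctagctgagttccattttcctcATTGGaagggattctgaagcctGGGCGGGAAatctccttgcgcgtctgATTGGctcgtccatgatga
Psmb1/Tbp: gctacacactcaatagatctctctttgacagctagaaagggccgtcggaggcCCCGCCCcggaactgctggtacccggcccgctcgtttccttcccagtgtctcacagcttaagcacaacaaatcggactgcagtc
Brca1/Nbr1: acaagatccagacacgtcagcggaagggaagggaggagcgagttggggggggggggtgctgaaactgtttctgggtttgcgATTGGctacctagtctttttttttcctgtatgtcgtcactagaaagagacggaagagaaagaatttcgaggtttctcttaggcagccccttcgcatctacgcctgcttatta

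Among regions with printable DNA of at most 300 bases, the 2 with the highest fold were Zfp169/A830005F24Rik (chr13:48513452-48513569), which held the ZNF143 letters ACTACAA, and Vta1/Nmbr (chr10:14705561-14705590), whose 30 bases held no motif. A further 4 were chosen after values were seen, as the region with the highest fold that shows a given feature. They are Ptcd2/Mrps27 (chr13:99344706-99344785) for the ETS letters CCGGAAGT, Bop1/Hsf1 (chr15:76477278-76477421) for the YY1 letters AAGATGGC beside an NFY box, Tmem209/Ssmem1 (chr6:30509784-30509848) for the ZBTB33 letters TCTCGCGA, which overlap their own reverse complement there, and Hist1h2ac/Hist1h2bc (chr13:23683949-23684198) for the layout of a histone pair, with 3 NFY boxes and a TATA core (TATAAA).
Zfp169/A830005F24Rik: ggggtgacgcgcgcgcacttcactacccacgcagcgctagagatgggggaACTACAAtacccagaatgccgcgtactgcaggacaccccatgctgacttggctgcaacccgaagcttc
Vta1/Nmbr: gcttgtccgcgacgggtgcccgaaggagac
Ptcd2/Mrps27: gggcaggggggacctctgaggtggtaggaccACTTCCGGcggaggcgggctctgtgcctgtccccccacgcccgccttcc
Bop1/Hsf1: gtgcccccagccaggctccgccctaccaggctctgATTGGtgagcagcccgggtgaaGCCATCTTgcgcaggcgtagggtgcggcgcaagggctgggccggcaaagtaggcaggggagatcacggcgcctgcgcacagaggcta
Tmem209/Ssmem1: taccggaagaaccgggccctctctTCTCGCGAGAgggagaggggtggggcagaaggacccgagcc
Hist1h2ac/Hist1h2bc: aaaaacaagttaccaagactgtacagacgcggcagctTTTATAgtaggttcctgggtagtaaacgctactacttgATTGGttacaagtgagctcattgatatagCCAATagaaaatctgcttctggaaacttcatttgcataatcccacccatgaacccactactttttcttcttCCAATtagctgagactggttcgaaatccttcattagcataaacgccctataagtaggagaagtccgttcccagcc

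Most annotated divergent pairs were open at their shared promoter. GENCODE vM21 places 1376 pairs of protein-coding genes with divergent TSSs at most 2000 bp apart, and 1148 of them (83.4%, 95% Wilson interval 81.4 to 85.3%, over pairs) had a member region. The share was 95.6% of 591 pairs with TSSs up to 100 bp apart, 91.2% of 319 pairs at 101 to 200 bp, 92.4% of 132 pairs at 201 to 300 bp and 91.0% of 89 pairs at 301 to 500 bp. It was 72.3% of 101 pairs at 501 to 1000 bp and 11.1% of 144 pairs at 1001 to 2000 bp, where the rule itself leaves little room for a summit near both TSSs.

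**Figure D1:**
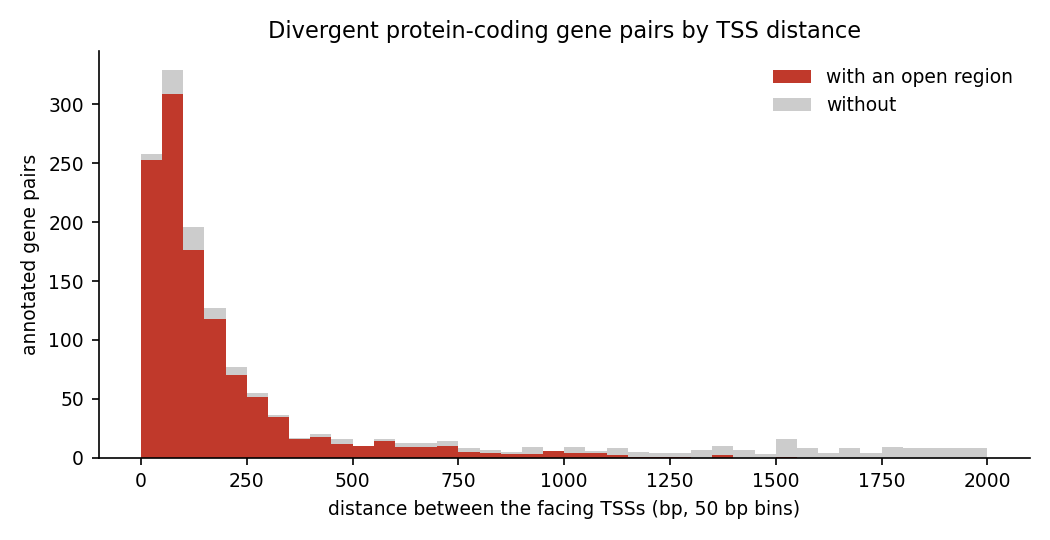
Number of annotated divergent protein-coding gene pairs (vertical axis) by the distance between their facing TSSs in bp (horizontal axis, bins of 50 bp), stacked as pairs with a bidirectional promoter region (red) and without one (grey). Most of the 1376 pairs lie below 300 bp and are red, and the few beyond 1000 bp are mostly grey.

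Counted by gene, 2460 of the 2682 genes in a divergent pair had at least 1 promoter region (91.7%). Over all protein-coding genes the share was 62.2% (13654 of 21938), and over the 19256 genes in no divergent pair it was 58.1%. The gap was there at each level of CpG content around the gene's 5′ end, and was widest where CpG was scarce. Genes were split into 4 equal groups by their CpG ratio, the observed CpG count over that expected from the C and G content. Open shares for paired and unpaired genes were 54.0% and 18.6% in the lowest group, 76.4% and 47.4% in the next, 96.0% and 84.3% in the third, and 98.9% and 92.1% in the highest. Genes of a pair share their DNA, so the 2 genes of a pair are not separate observations. CpG was measured at the 5′ end of the gene only, while pairs and open promoters were counted over every annotated TSS. The part of the number of TSSs per gene in this gap was not tested.

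Pairs with close TSSs but no member region were few. Of 1131 pairs with TSSs up to 500 bp apart, 72 had no member region. In 37 of these neither gene had any promoter region, in 28 only 1 gene did, and in 7 both did. In 1 of the 7, Plekhh3/Cntnap1 (169 bp), the highest fold was 7.76 at both genes. The median CpG ratio at the gene starts was 0.394 in the 72 pairs and 0.827 in the 1059 open ones. Examples below were chosen after their values were seen. Neither gene was open in Col4a4/Col4a3 (TSSs 72 bp apart), collagen chains of kidney and lung basement membranes, in Abcg5/Abcg8 (110 bp), sterol exporters of liver and gut, or in Duox2/Duoxa2 (451 bp), an oxidase of thyroid and mucosa with its maturation factor. The testis histone pair Hist1h2ba/Hist1h2aa (306 bp) and Smc1b/Ribc2 (114 bp), which includes a meiotic cohesin subunit, were also without a region. Plppr3/Prtn3 (68 bp) was the pair on the myeloid lists: Prtn3 encodes proteinase 3, a neutrophil granule protease, and neither of its TSSs had a summit within 1000 bp. Imprinted genes were found on either side: Commd1/Zrsr1 (356 bp) had a member region, and 4 other pairs with an imprinted gene had a region at 1 gene only. At Peg3/Usp29 (147 bp) only Peg3 had one, with a fold of 9.49, at Sgce/Peg10 (99 bp) only Peg10 with 5.72, at Nap1l5/Herc3 (186 bp) only Herc3 with 6.96, and at Blcap/Nnat (71 bp) only Blcap with 8.41. Each is the highest fold within 1000 bp of any annotated TSS of that gene, not of the facing TSS alone. None of these 4 pairs had a member region, so no summit lay between their facing TSSs. Col4a1/Col4a2 (116 bp), the textbook collagen IV pair, had no region between its genes, and the fold of 14.2 at Col4a2 belonged to a region by another of its TSSs.

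Regions at gene pairs were wide. Their median width was 979 bp (quartiles 711 and 1202 bp), where regions at promoters with TSSs on 1 strand only, 15993 in number and called one-strand promoters from here on, had 726 bp and all 75148 regions 473 bp. In the replicates' own lists, bidirectional regions had a median width of 913 bp in replicate 1 and 865 bp in replicate 2, and one-strand promoters 689 and 673 bp. Members were wider on 20 of 20 chromosomes, by 232 ± 77.0 bp (mean and SD over chromosomes). With 1 group of 2 replicates there is no test between groups, and chromosomes are not replicates, so this spread describes these lists only. The gap was not alike at every CpG content. With promoter summits in 4 equal groups by CpG ratio, members had a median of 431 bp and one-strand promoters 461 bp in the lowest. In the next groups they had 894.5 and 710 bp, 1022 and 843 bp, and 999 and 900 bp.

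The facing TSSs were a median of 143 bp apart (quartiles 76 and 297 bp), and 960 members (75.4%) had them within 300 bp. The open region covered both TSSs in 1028 members (80.8%) and reached a median of 398 bp past each TSS. The summit lay between the TSSs in 799 members (62.8%) and was a median of 55 bp from their midpoint. Which gene is on the plus strand is arbitrary, so averages over pairs cannot show whether a region leans towards 1 of its genes. At one-strand promoters the region reached 435 bp into the gene and 349 bp upstream of the nearest TSS, and 65.7% of summits were upstream.

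**Figure D2:**
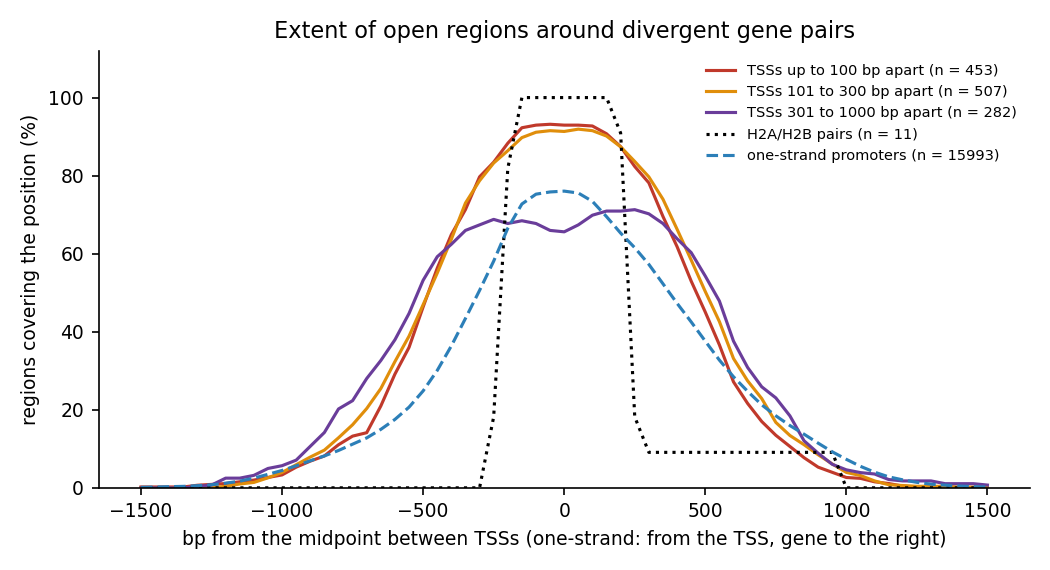
Share of regions that cover a position (vertical axis, %) by distance in bp from the midpoint between the TSSs (horizontal axis), for members with TSSs up to 100 bp, 101 to 300 bp and 301 to 1000 bp apart, for 11 regions centred on pairs of H2A and H2B histone genes (dotted), and for one-strand promoters from their nearest TSS with the gene to the right (dashed). Member curves are averaged over pairs in an arbitrary orientation, so their even shape is given by the alignment. The curve for 301 to 1000 bp dips at the centre to 65.6%, and the histone curve is a narrow block.

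Where the TSSs stood further apart, the region did not simply stretch. Median width was 970, 994, 1011 and 1040 bp at TSS distances of up to 100, 101 to 200, 201 to 300 and 301 to 500 bp, and then 733 bp at 501 to 1000 bp. The share covering both TSSs went from 92.9% at up to 100 bp to 73.8% at 301 to 500 bp and 29.8% at 501 to 1000 bp. The midpoint itself was covered by 92.9% of members with TSSs up to 100 bp apart, and by 65.6% of those with TSSs 301 to 1000 bp apart. These widths and shares count regions, so a pair with several regions entered more than once. Several regions were present at 76 of 565 pairs with a member at up to 100 bp, and at 23 of 73 at 501 to 1000 bp. The part of such splits in these values was not tested.

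Of the pairs, 161 had more than 1 member region, 152 of them exactly 2. The Gart/Son promoter, between a purine synthesis gene and a splicing cofactor gene, was split in this way into neighbouring regions of 653 and 1039 bp. Their folds were 8.998 and 8.766 in the series-level list, 9.03 and 8.95 in replicate 1, and 8.48 and 8.06 in replicate 2. The Fen1/Tmem258 promoter, between the flap endonuclease gene and one for an oligosaccharyltransferase subunit, had regions of 931 and 346 bp with folds of 9.23 and 8.62. Regions fell into 3 roles: the 955 regions that were alone at their pair, the 157 that were the strongest of several, and the 161 others. Median fold was 10.8, 8.99 and 5.43, median width 1054, 793 and 418 bp, and median CpG ratio at the summit 0.873, 0.834 and 0.593. Fold chose which region counted as the strongest, so the order of these folds is set by the split.

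Fold enrichment at members was moderate to high and seldom low. These folds are the authors' values, ratios to a baseline that the labels do not name, and serve here only to describe or rank regions within a list. Members had a median fold of 10 (quartiles 7.84 and 12.2) in the series-level list, one-strand promoters 8.67, regions away from promoters 7.93 and all regions 8.09. In the list of replicate 1 members had 10.4 and one-strand promoters 9.43, and in that of replicate 2 they had 9.06 and 8.21. The difference was 1.32 ± 0.531 (mean and SD over chromosomes) and above 0 on 19 of 20. By decile, 5.73% of members and 11.3% of one-strand promoters lay in the lowest decile of all regions by fold, and 15.2% and 13.4% in the highest.

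**Figure D3:**
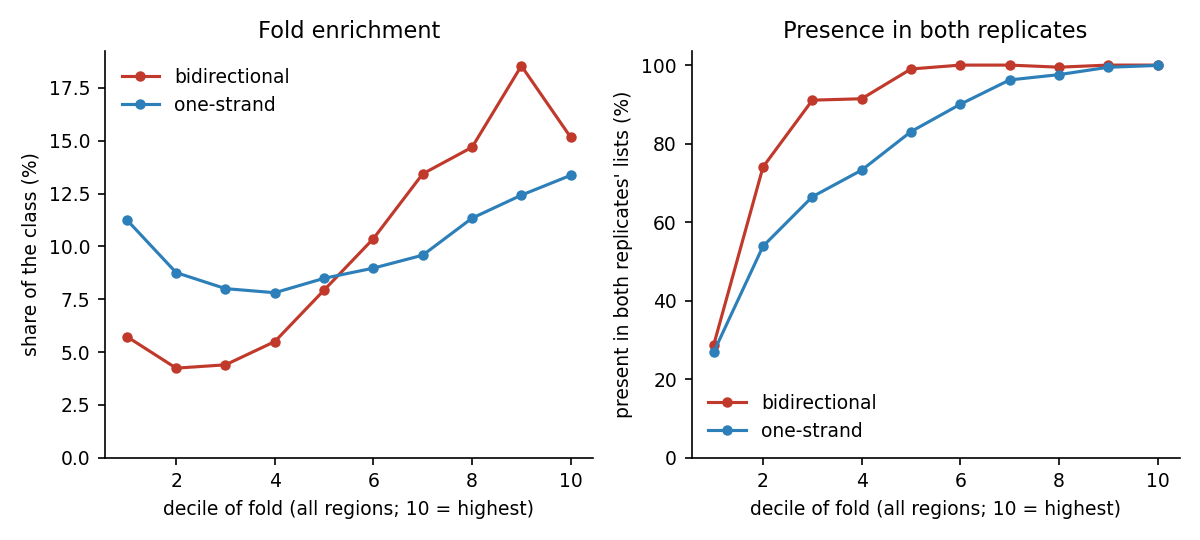
Left, share of the class (%) in each decile of all regions by fold, from the lowest (1) to the highest (10), for bidirectional (red) and one-strand promoter regions (blue). Right, share of each class present in both replicates' own lists (%) in the same deciles. Bidirectional regions thin out in deciles 1 to 4 and their presence in both replicates reaches 99.01% by decile 5, where one-strand promoters are at 83.1%.

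Fold also went with CpG content and with TSS distance. Promoter summits were split into 4 equal groups by CpG ratio. In the lowest group (a ratio under 0.402), the 73 members had a median fold of 6.18, below the 7.12 of one-strand promoters. In the next groups the order was the other way, with 9.35 and 8.53, 10.6 and 9.81, and 10.3 and 9.74. By TSS distance, median fold was 10.8 at up to 100 bp, 10.6 at 101 to 200 bp, 9.86 at 201 to 300 bp, 9.40 at 301 to 500 bp and 8.03 at 501 to 1000 bp. The replicates gave the same order, from 11.3 to 8.44 in replicate 1 and from 9.87 to 7.50 in replicate 2. At the edge of the rule, 59 members whose farther TSS was 900 to 1000 bp from the summit had a median fold of 6.88, and the 44 regions just outside, at 1000 to 1100 bp, had 5.52.

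Nearly all members were also in the own list of each replicate. The series-level list was made from the reads of both replicates, so this overlap is not an independent check. Overlap by at least 1 bp with the list of both replicates was seen for 1194 of 1273 members (93.8%, Wilson interval 92.3 to 94.99%), against a background of 66.1% of all regions and 79.9% of one-strand promoters. Only replicate 1 had 28 members, only replicate 2 had 11, and 40 were in neither list. The gap to one-strand promoters was 13.8 ± 3.03 percentage points over chromosomes and above 0 on 20 of 20. It was present at equal fold: in decile 2 of all regions by fold 74.1% of members and 53.9% of one-strand promoters were in both lists, in decile 3 91.1% and 66.5%, and in decile 5 99.01% and 83.1%. In decile 1 the shares were 28.8% and 26.9%. Members of these deciles were also wider (563 and 464 bp in decile 2, 987 and 683.5 bp in decile 5), and a wider region has more room to be overlapped. The part of width in this gap was not tested.

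Of the 40 members in neither replicate list, 34 were the weaker region of a pair with several. Those with the highest folds were Cdc73/B3galt2 (7.08), Wfdc3/Dnttip1 (5.65) and Lrrc63/Lcp1 (5.29), with widths of 517, 317 and 326 bp. In each of these the summit lay outside the space between the TSSs. In looser lists without the reproducibility threshold, 1260 members (98.98%) were in both replicates, as were 98.5% of one-strand promoters and 97.1% of all regions. Across the 1194 members present in both, fold correlated at r = 0.906 (Pearson, across regions, which are not independent), and 90.9% were higher in replicate 1, with a median log2 ratio of 0.18 (SD 0.18 across regions). One-strand promoters had 0.21.

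The strongest members were held in both replicates. Fam3a/Ikbkg, which includes the NF-kappaB regulator NEMO, had the highest fold, 19.7 in the series-level list, 19.8 in replicate 1 and 17.1 in replicate 2. Zfp169/A830005F24Rik followed with 19.3, 17.8 and 17.5. Vta1/Nmbr, an endosomal sorting gene beside a neuropeptide receptor gene, had 18.9, 18.8 and 16.6. In Sec24a/Sar1b both genes encode parts of the COPII coat that buds vesicles from the endoplasmic reticulum, and the folds were 18.7, 19.3 and 15.0. F8/Fundc2, which includes the gene for coagulation factor VIII, had 18.5, 17.6 and 15.7. The remaining 3 of the highest 8 were Ptcd2/Mrps27 with 18.5, Mdh1b/Fastkd2 with 18.4 and Calr3/1700030K09Rik with 17.9. All 8 were in both replicate lists, with widths of 480 to 944 bp, so none exceeded the median width of members. Presence in both lists was usual at high fold. In the highest decile it held for 99.8% of all regions and 99.9% of one-strand promoters. Several partners (Nmbr, F8, Calr3) are known for expression in other tissues, and an open shared region says nothing of which gene was read.

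The weakest members were narrow. The 4 lowest folds belonged to Fbxl12/Ubl5 (2.61), Mboat7/Tsen34 (2.61), Hjurp/Trpm8 (2.66) and Miip/Fv1 (2.84), none was in either replicate list, and their widths were 164 to 448 bp. Mboat7/Tsen34, a lysophospholipid acyltransferase gene beside a tRNA splicing endonuclease gene, also had 1 of the 3 widest members, 2063 bp with a fold of 6.16. The other two widest were Hsp90b1/Ttc41, at the gene of an endoplasmic reticulum chaperone, with 2178 bp and a fold of 7.42, and Setd3/Ccnk with 2175 bp and 8.53. Their folds were below the members' median in the series-level list and in each replicate.

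Of 23 gene pairs listed as candidates for shared promoters, 19 had divergent TSSs within 2000 bp in this annotation and 17 had a member region. Pairs of DNA repair and replication genes were among them. Atm/Npat, a checkpoint kinase gene and the gene of a histone transcription coactivator, had a fold of 13.4 in the series-level list, 13.1 in replicate 1 and 12.4 in replicate 2. Mcm4/Prkdc, a replicative helicase subunit and the end-joining kinase, had 10.6, 10.8 and 9.66. Brca1/Nbr1 had 9.26, 9.46 and 8.38. The replicates ordered these 3 pairs alike, with replicate 2 at or below replicate 1 each time.

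Other listed pairs hold genes of protein synthesis, folding and metabolism. Hars/Hars2, the cytosolic and mitochondrial histidyl-tRNA synthetases with TSSs 26 bp apart, had folds of 15.0, 14.5 and 13.6. Mrps12/Sars2, with the 4 NFY boxes, had 13.6, 15.1 and 11.4. Hspd1/Hspe1, the mitochondrial chaperonin and its partner, had 10.02, 9.997 and 9.442 over a region of 1581 bp. The purine synthesis pair Ppat/Paics had 9.53, 9.63 and 9.02, and the antigen presentation pair Psmb9/Tap1, an immunoproteasome subunit and a peptide transporter, had 9.38, 10.8 and 7.37. Of the remaining listed pairs with a region, the lowest were Ranbp1/Trmt2a (7.92), Sirt3/Psmd13 (7.88) and Hnrnpa2b1/Cbx3 (7.86), and Psmb1/Tbp (10.5), Pdcd10/Serpini1 (9.57), Surf1/Surf2 (8.92) and the split Fen1/Tmem258 and Gart/Son lay between. Besides Col4a1/Col4a2, Dtx3l/Parp9 had divergent TSSs (1882 bp apart) but no member. Acat2/Tcp1, Ncf4/Csf2rb, Rpl7a/Surf1 and Tmem126a/Tmem126b had no divergent TSS pair within 2000 bp. The genes of Ncf4/Csf2rb lie on the same strand, as do those of Tmem126a/Tmem126b, so neither could form a divergent pair.

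Most housekeeping gene lists were frequent at members, cytosolic ribosomal genes were near the background, and none of the listed myeloid genes was there. Over all protein-coding genes 10.3% were at a member region, or 16.5% of the genes with an open promoter. Of 62 DNA repair genes 26 were (41.9%), of 28 RNA polymerase subunit genes 12 (42.9%), of 21 chaperonin genes 9 (42.9%), of 78 mitochondrial ribosomal protein genes 29 (37.2%) and of 98 oxidative phosphorylation genes 34 (34.7%). Replication and cell cycle genes had 16 of 55 (29.1%), aminoacyl-tRNA synthetases 10 of 37 (27.0%), proteasome subunits 9 of 40 (22.5%) and cytosolic ribosomal proteins 14 of 82 (17.1%). Counted over genes with an open promoter, the share was 41.9% for DNA repair, 42.9% for both RNA polymerase subunits and chaperonins, 37.4% for oxidative phosphorylation, 37.2% for mitochondrial ribosomal proteins, 29.1% for replication and 27.0% for aminoacyl-tRNA synthetases. It was 23.7% for the proteasome and 17.7% for cytosolic ribosomal proteins, the latter close to the 16.5% of all open genes. Zinc finger genes had 29 of 397 (7.31%) and solute carriers 26 of 385 (6.75%), or 8.66% and 10.1% of those with an open promoter. None of 20 myeloid transcription factor genes, 24 granule and effector genes and 19 receptor genes was at a member, although 19, 21 and 19 of them had an open promoter. None of 1135 olfactory receptor genes was. These counts follow the annotation, since 27 of the 62 repair genes and only 1 of the myeloid genes have a divergent protein-coding neighbour within 2000 bp at all.

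Within the groups, regions at DNA repair genes had a median fold of 11.9 (11.8 in replicate 1 and 10.9 in replicate 2). All were in both replicate lists, 26 of 26, as were 93.8% of all members. The highest were Pinlyp/Xrcc1, with a single-strand break repair scaffold (16.3, 17.0 and 13.8), Xrcc4/Tmem167, with an end-joining factor (15.6, 14.8 and 15.3), Ankrd49/Mre11a, with a double-strand break nuclease (14.8, 14.8 and 13.7), and Toe1/Mutyh, with a base excision glycosylase (14.4, 14.8 and 13.0). Replication genes were led by Rpa1/Smyd4 (16.5, 16.1 and 16.2) and Rpa3/Umad1 (14.6, 14.1 and 13.6), both with subunits of the single-strand binding protein, and by Prpf38a/Orc1 (15.0, 15.3 and 13.3) and Orc3/Rars2 (14.7, 13.6 and 14.7), with subunits of the origin recognition complex. Each of these 8 exceeded the members' median in the series-level list and in each replicate. They were named for the highest folds of their lists, so this comes with the choice.

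The 35 regions at oxidative phosphorylation genes had a median fold of 11.7 and all were in both replicates, beside 93.8% of all members. Fam126b/Ndufb3, with a complex I subunit, had 17.1, 17.3 and 14.8. At mitochondrial ribosomal protein genes 29 of 31 regions were in both replicates, and Mrpl46/Mrps11 (15.1, 15.6 and 12.5) paired 2 such genes. Cytosolic ribosomal protein genes had a lower median, 9.35 over 16 regions, with Rps28/Ndufa7 (13.8, 15.5 and 11.2) and Rpl9/Lias (12.7, 12.3 and 12.0) highest. Proteasome genes were led by AY074887/Psma4 (16.9, 16.5 and 15.2), RNA polymerase subunit genes by Dzank1/Polr3f (13.7, 13.0 and 13.8), and zinc finger genes after Zfp169 by Zfp597/Naa60 (14.8, 14.3 and 13.9). Only 1 mitochondrial ribosomal region and 0 of the DNA repair and oxidative phosphorylation regions paired 2 genes of the same list, so the partner of a housekeeping gene mostly came from outside its group.

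Histone pairs differed from the other groups in partner and in shape. Replication-dependent histone genes lie in clusters and are transcribed in S phase, and 28 of 67 were at a member, where 17 of 18 regions joined 2 histone genes. In 11 regions the summit lay between an H2A gene and an H2B gene with TSSs 176 to 302 bp apart. Their median width was 462 bp, with 10 of them between 404 and 480 bp and the eleventh, Hist2h2ac/Hist2h2be on chromosome 3, at 1289 bp. Another 149 members with TSSs at the same distances, a summit between them and no histone gene had a median width of 1026 bp. The dotted curve in the plot of extent shows this block, about as wide as the space between the TSSs plus some 100 bp on each side.

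Hist1h2ah/Hist1h2bk had the highest fold of the 11, 10.9 in the series-level list, 11.7 in replicate 1 and 9.82 in replicate 2. Hist1h2ac/Hist1h2bc had 9.26, 9.16 and 8.84, and Hist1h2an/Hist1h2bp had 9.26, 9.29 and 8.83. The lowest was Hist1h2bf/Hist1h2ad with 6.77, 6.52 and 6.70. All 11 were in both replicate lists, as were 145 of the 149 others. Over all 14 regions at H2A/H2B pairs, those with a summit past a TSS included, 12 were in both lists, 11 held a CCAAT box and the median fold was 7.38. For the 11, the median fold was 8.46, and for the 149 others 10.9. A single summit was present in 9 of the 11 (81.8%) and in 24.2% of the 149. The DNA differed as well: median GC content within 100 bp of the summit was 44.8% against 63.2%, the CpG ratio 0.570 against 0.828, a CCAAT box was present in 11 of 11 against 57.7%, and a TATA core in 4 of 11 against 1.34%. Motifs farther than 100 bp from the summit were not counted. The TATA core printed for Hist1h2ac/Hist1h2bc is such a case and is not among the 4. Histone genes are near-identical copies, the handling of reads that match several places is not stated by the labels, and its effect on these folds and widths was not tested. The histone comparison was made after values had been seen.

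Summits of members were richer in CpG than those of other promoters. The median CpG ratio within 100 bp of the summit was 0.849 at members, 0.689 at one-strand promoters and 0.269 over all regions, and the median GC content was 63.7%, 62.2% and 51.2%. A CpG ratio of at least 0.6, a common mark of CpG islands, was met by 1080 members (84.8%), against a background of 18.6% of all regions and 58.8% of one-strand promoters. Of the sequences printed above, that of Mrps12/Sars2 held 7 CG dinucleotides in 171 bases and that of Bop1/Hsf1 held 10 in 144 bases.

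The bases themselves pointed outwards, as they did downstream of one-strand promoters. On the plus strand, the 250 bases to the right of the midpoint, on the side of the plus-strand gene, held 32.7% G and 28.8% C, and the 250 bases to the left held 29.0% G and 32.5% C. The GC skew, (G - C)/(G + C), was 0.064 on the right and -0.057 on the left, with an SD over chromosomes of 0.021 on each side, and was higher on the right on 20 of 20 chromosomes. The TA skew, (T - A)/(T + A), was 0.038 and -0.035 and higher on the right on 19 of 20. Read in the direction of each gene, both sides were thus richer in G than C and in T than A. Which gene is on the plus strand is arbitrary, so the near-equal size on either side is given by the alignment. Up to 250 bp downstream of one-strand TSSs, 50 bp bins had GC skews of 0.057 to 0.081 and TA skews of 0.024 to 0.050. This lean was thus not particular to members.

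**Figure D4:**
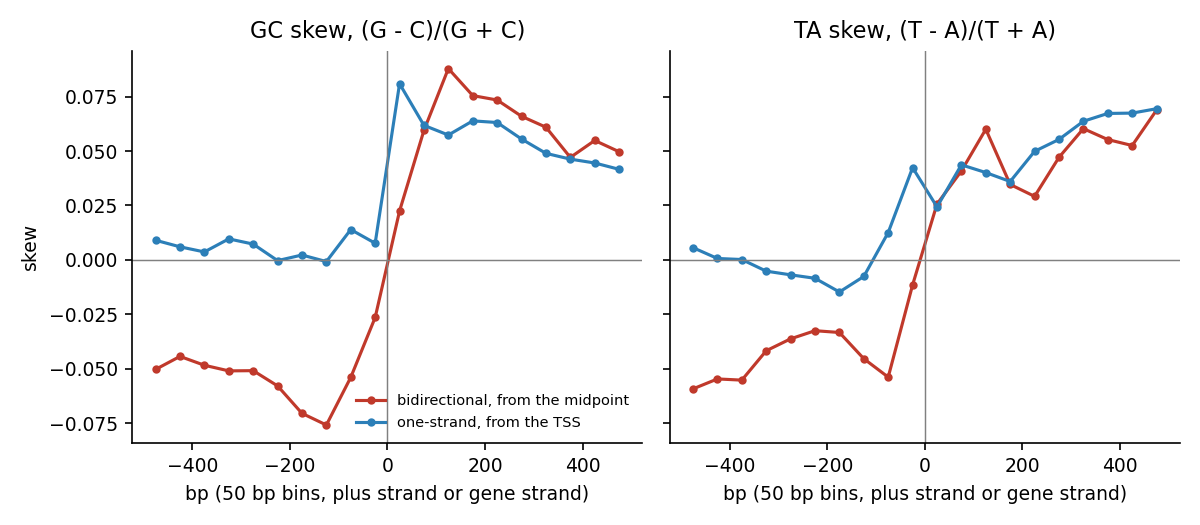
GC skew (left) and TA skew (right), both without unit, in 50 bp bins by distance in bp from the midpoint between TSSs for bidirectional regions on the plus strand (red), and from the nearest TSS on the gene's strand for one-strand promoters (blue). The red curves are negative on the left and positive on the right, and the blue GC skew is near 0 upstream and positive downstream.

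Of 16 motifs searched on both strands within 100 bp of the summit, 6 of promoter factors are given first. Each was more frequent at members than at one-strand promoters. The promoter motifs KLF/SP, NRF1 and E-box follow further on, and NRF1 and E-box were more frequent at members on only 10 and 11 of 20 chromosomes. The NFY box CCAAT was in 38.1% of members, 28.1% of one-strand promoters and 23.7% of all regions, and more frequent at members on 19 of 20 chromosomes. The ETS letters CCGGAAGT were in 10.6%, 4.83% and 1.76% (18 of 20 chromosomes). The ZNF143 letters ACTACAA were in 5.58%, 2.52% and 2.00% (17 of 20), the YY1 letters AAGATGGC in 5.26%, 2.69% and 1.64% (17 of 20), and the ZBTB33 letters TCTCGCGA in 3.46%, 1.26% and 0.349% (16 of 20). The CREB and ATF site TGACGTCA was in 4.08%, 2.22% and 0.881% (14 of 20). In each replicate's own list these 6 motifs were again more frequent at members, ETS for example in 10.8% against 5.08% in replicate 1 and 11.3% against 5.41% in replicate 2.

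These differences were not alike at every CpG content. ETS was more frequent at members in the 3 higher groups of CpG ratio (6.30% against 3.36%, 13.3% against 6.64%, and 12.2% against 8.89%), and had no match among the 73 members of the lowest. NFY was more frequent at members in all 4 groups, by most in the lowest 2 (39.7% against 23.2% and 44.4% against 30.9%). KLF/SP (GGGCGGG), in 41.9% of members, 34.4% of one-strand promoters and 11.4% of all regions, was not: its share was 49.5% against 49.9% in the third group and 40.5% against 48.6% in the highest.

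Motifs of myeloid regulators were less frequent at members than at one-strand promoters, taken over all CpG contents. The PU.1 letters GAGGAAGT, for the product of Spi1, a master regulator of these cells, were in 2.83% of members, 4.91% of one-strand promoters and 10.1% of all regions. The RUNX letters TGTGGTT were in 2.44%, 4.26% and 9.66%, lower at members than at one-strand promoters on 20 of 20 chromosomes, and the AP-1 letters TGAGTCA in 2.28%, 3.93% and 7.30%. At similar CpG content these gaps did not hold throughout. From the lowest to the highest CpG group, PU.1 was in 8.22%, 1.85%, 2.66% and 2.71% of members and 11.2%, 4.05%, 2.20% and 1.55% of one-strand promoters. RUNX was in 4.11%, 4.44%, 1.21% and 2.13% against 9.30%, 3.83%, 1.90% and 1.55%, and AP-1 in 8.22%, 1.48%, 2.17% and 1.94% against 7.74%, 4.17%, 1.87% and 1.55%. Members thus had the higher share in 2 of the 4 groups for PU.1 and RUNX and in 3 of the 4 for AP-1. The CEBP letters TTGCGCAA were in 6 members (0.471%) and 0.338% of one-strand promoters, too few to order. The NRF1 letters GCGCATGC (3.69% and 2.75%) and E2F letters GGCGGGAA (3.46% and 2.62%) were each more frequent at members on 10 of 20 chromosomes. The TATA core TATAAA (2.59% and 3.22%) was less frequent on 14 of 20. The E-box CACGTG was in 7.07% and 6.95% (higher at members on 11 of 20), and the CTCF letters AGGGGGC in 11.9% and 12.9% (lower on 11 of 20). A match is a run of letters and says nothing of binding, ETS and PU.1 letters share the core GGAAGT, and E2F and KLF/SP letters overlap.

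**Figure D5:**
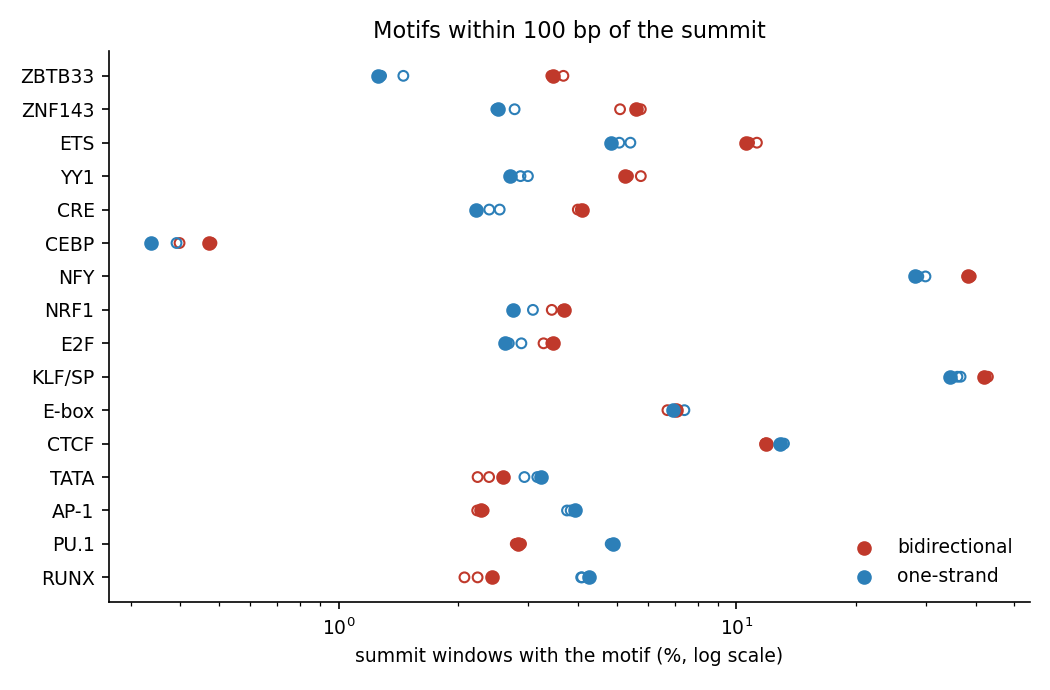
Share of summit windows with a motif (%, log scale) for 16 motifs, at bidirectional (red) and one-strand promoter regions (blue), in the series-level list (filled) and in the list of each replicate (open). ZBTB33, ZNF143, ETS and YY1 stand to the right in red, PU.1, RUNX and AP-1 to the right in blue, in all 3 lists.

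Motifs also differed in where they lay relative to the TSSs. Of all bases in the members' summit windows, 53.5% were past one of the TSSs, inside a gene. Of 791 NFY matches 215 were (27.2%), of 775 KLF/SP matches 255 (32.9%) and of 73 ZBTB33 matches 24 (32.9%), so these were mostly between the start sites. The printed sequences hold only DNA between TSSs, so they cannot show this. ETS matches were spread as the bases were, 73 of 150 past a TSS (48.7%). YY1 was the other way, with 57 of 69 matches past a TSS (82.6%), and 45 of those 57 (78.9%) read AAGATGGC on the strand of the gene they lay in. The match printed for Bop1/Hsf1 is 1 of the 12 between TSSs. One-strand promoters gave the same picture for YY1, with 69.2% of 439 matches past the TSS, where 40.6% of the bases were, and 79.9% of those on the strand of the gene. RUNX matches at members were few, and 22 of 31 were past a TSS.

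Members with more of the promoter motifs had higher folds, as one-strand promoters did. Counting NFY, ETS, NRF1, CRE, YY1, KLF/SP, ZBTB33, ZNF143 and E-box, median fold was 8.72 in the 269 members with none, 9.78 in the 575 with 1, 10.8 in the 346 with 2 and 11.1 in the 83 with at least 3. One-strand promoters had 7.48, 8.87, 10.4 and 11.4. At 3 or more motifs members were thus not above one-strand promoters, and 21.1% of members and 38.9% of one-strand promoters had no such motif.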

How the data were processed

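ATAC-seq of 2 GMP samples was deposited as lists of accessible regions. Per the labels and the submitters' file list, the build is mm10, lists exist for either replicate, and the series-level lists were made from the reads of both. Aligner, caller, software versions and any Tn5 shift were not given in the sources used here. Sequencer models are labelled for replicate 1 alone. The deposited fold enrichment is a ratio made by the authors, and the deposited summit offset is a distance in bp from a row's start. The looser lists lack the threshold on the irreproducible discovery rate. Depth is unknown, since the lists hold no counts, so no interval for depth was computed, and Wilson intervals cover only the number of regions or pairs.

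Rows overlapping by 1 bp were merged, and summits were set against GENCODE vM21 TSSs on GRCm38.p6, the build of mm10, with Python 3.11.15, SciPy 1.17.1 and Matplotlib 3.10.9. An earlier analysis of these data appears to have used protein-coding transcripts only, and here all transcripts of protein-coding genes were used. Motifs, CpG ratio and GC content were counted within 100 bp of the summit, gene starts within 250 bp. Labels give the samples as biological replicates, with a number each. Values were compared between classes by shares, medians and their spread over 20 chromosomes, with no test. Merging, classing, overlap and motif counting were checked on simulated data. Genes were named by rule: the listed pairs, the 8 highest and 4 lowest folds, up to 4 members of each list by fold, up to 3 members in neither replicate, and the 3 widest. A few items that the rule names are not reported here. Pairs without a region, histone pairs beyond that and 4 sequences were chosen after values were seen. Members and lists were chosen with earlier results of these data known. Alternatives were other TSS sets, windows and lists.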

Additional observations from a re-analysis of the deposited data

How the results depend on the processing

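In 14 differences between members and one-strand promoters (fold, width, presence in both replicates, CpG ratio and 10 motifs), 120 recomputed values over 9 settings gave 0 changes of sign, but their size moved. NRF1, E2F, TATA, CTCF, CEBP and E-box were not among the 10 motifs. Of these, only E-box changed sign in the replicates' own lists. Its main shares were 7.07% of members and 6.95% of one-strand promoters. They were 6.93% and 6.99% in replicate 1, and 6.71% and 7.40% in replicate 2. With gene 5′ ends only, the KLF/SP difference was 1.79 percentage points (7.49 in the main setting), AP-1 -0.55 (-1.66), RUNX -0.65 (-1.83), ETS 3.68 (5.78), the CpG ratio 0.086 (0.160) and the median fold 0.889 (1.33). Among regions at or above the median fold of the list, the difference in median fold nearly vanished, at 0.046. With the looser series-level list it was 2.66. The number of members was 799 with gene 5′ ends only and 2844 without merging. With a 500 bp window the median width was 1014 bp, pairs with a member 74.4%, members in both replicates 97.6%, summits between the TSSs 67.0%, CpG ratio 0.881, GC 64.7% and ETS 12.5%. With regions at or above the median fold, these were 1030 bp, 67.6%, 99.9%, 67.3%, 0.872, 64.2% and 12.7%, and the median fold was 11.3, which that choice by fold raises. With the looser series-level list they were 916 bp, 85.3%, 83.1%, 58.0%, 0.825, 63.2% and 9.39%. Gene 5′ ends only gave 51.6% of summits between the TSSs, a CpG ratio of 0.852 and ETS at 9.76%, and protein-coding transcripts 61.1% of summits between. Within 50 bp of the summit the CpG ratio was 0.862, GC 64.4% and ETS 6.76%. With only the highest region of each pair, an alternative chosen after seeing the data, width was 1018 bp and presence in both replicates 97.8%. From 1 replicate's list alone, with the other left out, width was 865 to 913 bp, pairs with a member 81.6 to 82.9%, CpG ratio 0.846 to 0.848 and ETS 10.8 to 11.3%. Presence in both replicates has no value there. No paired analysis was possible because there is only 1 group. Depth is unknown, so a region missing from a list only failed its threshold.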

Other observations

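A further class of promoters was set apart after seeing the data. Of the 15993 one-strand promoter regions, 1043 had the TSS of a long noncoding RNA on the other strand, running away from the protein-coding gene. Their median width was 886 bp, against 716.5 bp for the 14950 without such a partner and 979 bp for pairs of protein-coding genes. Median fold was 9.10, 8.63 and 10 in the same order, presence in both replicates 86.3%, 79.5% and 93.8%, and the median CpG ratio 0.827, 0.675 and 0.849. Other measures did not lie between: median GC content was 65.7%, 62.2% and 63.7%, and 12.9%, 13.4% and 15.2% were in the highest decile of fold. ETS letters were in 7.77%, NFY boxes in 33.2%, KLF/SP letters in 44.2% and ZNF143 letters in 2.01% of the 1043. A further 143 regions had TSSs on both strands that face each other or overlap, 830 bp wide at the median, with a fold of 8.70.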
